A study of Homo sapiens with 14 samples.

Results

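The genes described here are 45 genes of DNA replication and of entry into S phase, the part of the cell cycle in which the genome is copied. They were taken as a fixed list of gene names and grouped by role into 10 licensing genes, 6 helicase activation genes, 6 genes of the sliding clamp and its loader, 7 polymerase and primase genes, 2 genes of Okazaki fragment processing, 4 genes of nucleotide supply, 3 single-strand binding genes, 3 genes of fork signalling and chromatin assembly, and 4 S-phase entry regulators. All 45 were found among the 57905 gene features of the degradation tables, the 57904 of the knockdown table and the 20243 of the R219S table. All 45 passed the filter on low counts in every fit.

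DNA is copied from origins that are prepared before S phase and fired within it. The origin recognition complex, CDC6 and CDT1 load the MCM2-7 helicase onto DNA, and MCM10, CDC45 and the GINS complex then turn it into a moving fork. The RFC complex places the PCNA clamp on primed DNA, the polymerases extend from it, and ribonucleotide reductase and thymidylate synthase supply the building blocks. Cyclin E with its kinase starts the process, and the E2F factors transcribe many of these genes late in G1, so the set as a whole is known to be high in dividing cells and low in resting ones.

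RNA was sequenced from 14 libraries of 22Rv1, an established human prostate cancer cell line that expresses the androgen receptor. There were 7 groups of 2 libraries each. shFOXA1 cells had received a lentivirus with a hairpin against FOXA1, the pioneer transcription factor of the prostate luminal lineage, and shCtrl cells a control lentivirus. The shCtrl titles name the line 22Rv2, while their cell line label is 22Rv1. All other libraries came from 22Rv1 cells with FOXA1 fused to dTAG, a tag through which an added small molecule sends the protein to degradation. They were labelled 24 h, 1 h or 0 h of dTAG, or R219S or WT, where R219S is a substitution in FOXA1. The labels say that dTAG or DMSO was given to these cells without saying which library received which, name no vehicle group at 24 h, and do not give whether R219S cells were 1 clone. Nor do they say that libraries of a group came from separate cultures, so p-values measure the spread between these libraries, which may be technical.

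Library totals ran from 21560090 to 38465155 counts. FOXA1 mRNA was 299 and 305 CPM (counts scaled to the size of the library) in shFOXA1 cells, against 402 and 435 CPM in shCtrl cells, a log2 fold change of -0.47 ± 0.062 (standard error, 2 libraries per group; adjusted p = 2.75e-04). The log2 fold change of FOXA1 mRNA was -0.01 at 1 h, 0.23 at 24 h and -0.57 in R219S cells, and the mRNA does not measure degradation of the tagged protein. FOXA1 mRNA averaged 692 CPM in R219S cells and 1025 CPM in WT cells, against 170 CPM at 0 h and 200.4 CPM at 24 h. These levels were scaled within each comparison and not tested between comparisons. Of the 8 luminal markers, FOXA1 among them, 5 were higher and 2 lower in shFOXA1 cells (median log2 fold change 0.33) and 5 and 2 at 1 h (0.14). At 24 h 6 were higher and 2 lower (0.29), and in R219S cells 2 and 5 (-0.46). The lowest marker value was -0.52, -1.84, -3.81 and -5.11 in the same order. Of all genes tested, 23.6%, 19.8%, 46.9% and 62.1% were called in either direction. The part of the luminal markers in the results was not tested. Summed endothelial markers stayed under 1 CPM and summed leukocyte markers reached at most 4.15 CPM in any library. The 6 fibroblast markers summed to 509 and 520.1 CPM in R219S cells, against 215 and 224 CPM in WT cells, and to at most 31.2 CPM elsewhere. COL3A1 made most of that difference, with 276 and 281 CPM in R219S cells, against 7.03 and 5.86 CPM in WT cells. The part of these markers in the results for R219S was not tested. The shFOXA1 libraries differed more from each other than those of other groups, with a chi-square per degree of freedom of 11.8, against 2.04 to 4.04 elsewhere, and 6 of the 45 genes were higher in replicate 2. In bulk RNA, fewer cells in S phase and less RNA per cell cannot be told apart.

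The promoters of 4 members, fixed with the design, are shown: CDC6 and MCM2 of the licensing genes, PCNA, and E2F1 of the S-phase entry regulators. CDC6 loads the helicase, MCM2 is one of its subunits, PCNA is the clamp and E2F1 is the transcription factor that binds such promoters. All 4 were lower at 24 h, as were 44 of the 45 members. Sequences run 5′ to 3′ along the gene's strand, from 250 bases before to 50 bases after the annotated start, from RefSeq on GRCh38.p14. Capitals mark matches to the E2F-type letters TTTCCCGC, TTTGGCGC, TTTCGCGC or TTTGCCGC and to the CCAAT box, on either strand.
CDC6, chr17:40287629-40287928, plus strand: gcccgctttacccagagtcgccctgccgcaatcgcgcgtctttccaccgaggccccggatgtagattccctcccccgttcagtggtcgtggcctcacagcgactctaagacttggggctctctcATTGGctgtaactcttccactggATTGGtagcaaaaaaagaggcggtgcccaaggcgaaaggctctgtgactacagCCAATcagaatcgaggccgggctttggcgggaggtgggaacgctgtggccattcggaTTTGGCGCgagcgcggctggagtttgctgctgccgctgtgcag
MCM2, chr3:127598161-127598460, plus strand: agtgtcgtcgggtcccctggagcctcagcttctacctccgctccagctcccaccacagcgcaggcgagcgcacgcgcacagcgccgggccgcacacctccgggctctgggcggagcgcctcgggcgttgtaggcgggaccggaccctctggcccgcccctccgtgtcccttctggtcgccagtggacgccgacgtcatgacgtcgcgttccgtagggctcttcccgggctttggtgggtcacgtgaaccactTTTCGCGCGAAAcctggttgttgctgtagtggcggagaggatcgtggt
PCNA, chr20:5126573-5126872, minus strand: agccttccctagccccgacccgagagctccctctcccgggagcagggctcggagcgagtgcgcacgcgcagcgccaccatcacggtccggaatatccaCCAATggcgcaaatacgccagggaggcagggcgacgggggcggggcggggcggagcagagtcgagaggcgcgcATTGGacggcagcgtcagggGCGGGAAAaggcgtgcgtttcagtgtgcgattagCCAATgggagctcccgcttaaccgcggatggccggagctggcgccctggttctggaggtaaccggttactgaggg
E2F1, chr20:33686336-33686635, minus strand: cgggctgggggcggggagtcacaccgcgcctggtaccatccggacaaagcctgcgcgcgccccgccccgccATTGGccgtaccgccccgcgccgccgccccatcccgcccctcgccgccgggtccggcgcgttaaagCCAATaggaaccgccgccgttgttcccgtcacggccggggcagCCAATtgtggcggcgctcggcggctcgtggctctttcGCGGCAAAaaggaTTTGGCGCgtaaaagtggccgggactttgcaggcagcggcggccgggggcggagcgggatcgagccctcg
The CDC6 promoter held 1 E2F-type match and 3 CCAAT boxes. In the MCM2 promoter 2 E2F-type matches overlapped in a palindrome and there was no CCAAT box. PCNA had 1 E2F-type match and 3 CCAAT boxes, and E2F1, which is known to act on its own promoter, had 2 and 3.

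Promoter sequences were at hand for 38 of the 45 genes. Only the first listed promoter of each gene symbol was searched, so other starts were left out. An E2F-type match was in 20 of the 38 promoters (52.6%), against 908 of all 27305 promoters of the same 300 bases (3.33%). The 27305 were not limited to genes tested in these cells. TTTCCCGC was in 10 of them (26.3%, against 1.66% of all promoters), TTTGGCGC in 8 (21.1%, against 0.659%), TTTCGCGC in 5 (13.2%, against 0.546%) and TTTGCCGC in 1 (2.63%, against 0.564%). CCAAT was in 22 (57.9%, against 35.7%). The CHR-type letters TTTGAA or TTTAAA, searched on both strands, were in 4 promoters (10.5%, against 24.3%), those of RRM2, RRM1, TK1 and CCNE1. At 24 h the 20 genes with an E2F-type match had a median log2 fold change of -1.48 and a range from -2.59 to -0.31, and the 18 without one a median of -1.25 and a range from -2.55 to -0.09, so the ranges overlapped almost fully. A match describes letters in the window, and its absence says nothing about binding of E2F. The genes CCNE2, GINS4, MCM4, MCM5, POLD3, RPA2 and RPA3 had no entry.

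After 24 h of FOXA1 degradation the replication genes fell together. Against 0 h, 44 of 45 were lower at an adjusted p under 0.05 and 0 were higher, where 24.8% of all 19607 genes tested were lower and 22.1% were higher (46.9% in either direction). Their median log2 fold change was -1.40, or 0.379 times the level at 0 h, with a range from -2.59 to -0.09, while the median of all genes was 0.01. The exception was RPA1. The CPM of the 24 h and 0 h libraries overlapped for 0 of the 45 genes, and 70.8% of all genes tested did not overlap either. By DESeq2 44 were lower and 0 higher, and at an unadjusted p under 0.05 no gene was higher. The largest falls were those of CLSPN, CDC45, MCM10, CDC6 and RRM2, and the smallest called falls were those of RFC1, GINS3 and POLE. A fall by at least 1 on the log2 scale was seen in 32 genes and by at least 2 in 10.

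In the FOXA1 knockdown nearly as many of the genes were lower, by much less. In shFOXA1 cells 41 of 45 were lower than in shCtrl cells and 0 were higher, where 12.3% of all 19128 genes were lower and 11.3% higher. Their median log2 fold change was -0.42, or 0.749 times the level in shCtrl cells, and the values ran from -0.74 to 0.18, with a median of 0.01 over all genes. The groups overlapped for 0 of the 45, where 63.4% of all genes tested did not overlap. E2F2, CLSPN, CDC6, CDC45 and MCM10 fell most, and POLD3, POLE, TYMS and CCNE1 were not called. At an unadjusted p under 0.05, 44 genes were lower and 0 higher, and by DESeq2 40 were lower and 0 higher. Without shFOXA1 replicate 1 the count was 43, without shFOXA1 replicate 2 it was 41, and without shCtrl replicate 1 or 2 it was 33 or 32.

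At 1 h few of the genes had moved. Against 0 h, 6 were higher (CDT1, MCM7, GINS3, TYMS, TK1 and E2F2) and 2 lower (CCNE2 and RFC3), where 10.7% of all 19397 genes were higher and 9.12% lower (19.8% in either direction), so the members' counts lay near the background. The median log2 fold change was 0.04, with a range from -0.65 to 0.30, and the 1 h and 0 h libraries did not overlap for 26 genes of the 45, near the 56.4% of all genes tested that did not. The counts changed with single libraries and with the tool: without 1 h replicate 1 they were 1 and 1, and by DESeq2 also 1 and 1. E2F2 and CCNE2 were the genes called in each of these. Log2 fold changes at 1 h also followed GC content across all genes (Spearman 0.323, genes not being independent replicates). With a correction for GC content and length CCNE2 was the 1 gene called lower and 6 were called higher, of which GINS3 and E2F2 were also called without it and GINS1, PCNA, PRIM1 and RRM1 were not.

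R219S cells differed little from WT cells, with more of the genes lower than higher. Of the 45 genes, 22 were lower and 6 higher, where 31.6% of all 13990 genes were lower and 30.5% higher (62.1% in either direction). The log2 fold change was negative for 33 of the 45 and positive for 12. The 6 higher genes were MCM6, GINS3, POLA1, RPA2, RPA3 and CCNE1. The median log2 fold change was -0.12, or 0.919 times the WT level, with a range from -0.71 to 0.50, and the groups did not overlap for 35 genes of the 45, near the 79.4% of all genes tested that did not. By DESeq2, 16 were lower and 4 higher. CCNE2, RRM2, CLSPN, LIG1 and GINS4 fell most.

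**Figure D1:**
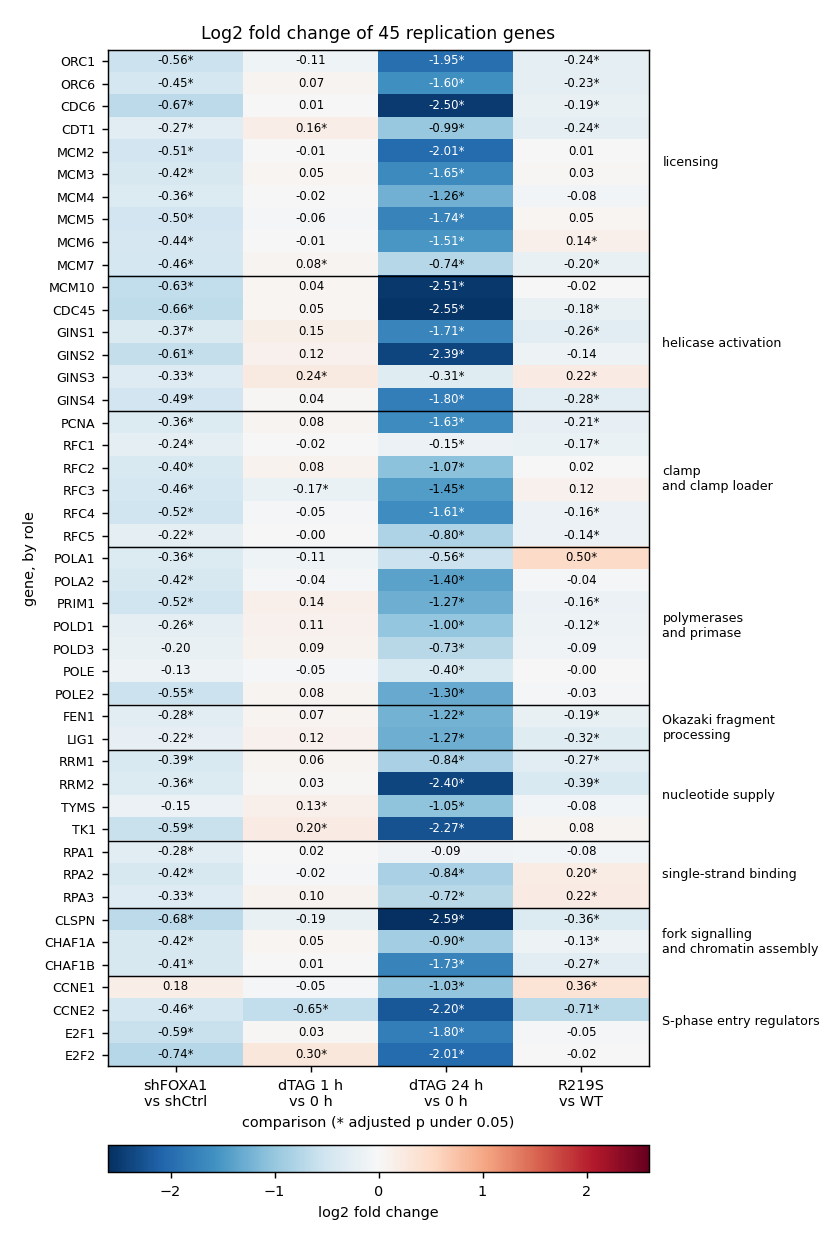
Log2 fold changes of the 45 genes (rows, by role) in the 4 comparisons (columns), with the value in each cell, blue for lower and red for higher, and an asterisk at an adjusted p under 0.05. The 24 h column is blue throughout, from -2.59 for CLSPN to -0.09 for RPA1, the shFOXA1 column is paler, and the 1 h and R219S columns hold both signs.

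Among the licensing genes, all 10 fell at 24 h (median log2 -1.62) and all 10 fell in shFOXA1 cells (median -0.45). Of all genes tested, 24.8% were lower at 24 h and 12.3% in shFOXA1 cells. As 44 and 41 of the 45 members were lower there, the counts by role given here and below nearly repeat those of the whole set. CDC6, the ATPase that brings the helicase to the origin, had 56.1 and 54 CPM at 0 h, 54.7 and 56.4 CPM at 1 h and 9.98 and 9.51 CPM at 24 h, the levels of the dTAG libraries being scaled over all 6 of them. Both 24 h libraries stood far below all earlier ones, with a log2 fold change of -2.50 ± 0.073 (adjusted p = 5.95e-23). In the knockdown CDC6 had 81.3 and 69.7 CPM in shFOXA1 cells, against 119 and 122 CPM in shCtrl cells, and in the mutant 67.2 and 65 CPM in R219S cells, against 76.5 and 73.9 CPM in WT cells. Both shFOXA1 libraries and both R219S libraries were below their controls, at -0.67 ± 0.075 and -0.19 ± 0.050 on the log2 scale.

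CDT1, the loader that geminin inhibits, differed from CDC6 at 1 h. It had 38.8 and 33.3 CPM at 0 h, 41.7 and 39.1 CPM at 1 h and 18.3 and 18.1 CPM at 24 h. The 1 h libraries were above both 0 h libraries, by 0.16 ± 0.060 (adjusted p = 0.0428), a call that was lost without 0 h replicate 2 (adjusted p = 0.65) and by DESeq2 (0.28), and whose sign turned with a correction for GC content and length (-0.02). At 24 h it fell by 0.99, the second smallest fall of the licensing genes. It was 78.7 and 77.9 CPM in shFOXA1 cells, against 91.4 and 96.9 CPM in shCtrl cells, and 105 and 100.1 CPM in R219S cells, against 115 and 128 CPM in WT cells, lower in both libraries of each pair.

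ORC1, the origin recognition subunit that is degraded in S phase in human cells and made again, had 13.6 and 13.7 CPM at 0 h, 12 and 13.3 CPM at 1 h and 3.61 and 3.43 CPM at 24 h. The 24 h libraries were far below the rest, at -1.95 ± 0.12. ORC1 had 20.1 and 18.8 CPM in shFOXA1 cells, against 28.9 and 28.5 CPM in shCtrl cells, and 23.3 and 22.4 CPM in R219S cells, against 28.4 and 25.2 CPM in WT cells, so it was lower in each, the R219S call being lost without WT replicate 1, where the value was -0.14 (adjusted p = 0.21). ORC6, the smallest subunit of the complex, fell by 1.6 at 24 h and by 0.45 in shFOXA1 cells.

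The MCM2-7 subunits, which form 1 ring, fell by unequal amounts at 24 h. MCM2 had 134 and 133 CPM at 0 h, 134 and 131 CPM at 1 h and 34.2 and 32.1 CPM at 24 h, a change of -2.01 ± 0.049. MCM7 had 290.0 and 295 CPM at 0 h, 314 and 305 CPM at 1 h and 175 and 176 CPM at 24 h, a change of -0.74 ± 0.037. The 24 h libraries of both genes lay below all others, yet MCM7 was at 0.600 and MCM2 at 0.249 times its level at 0 h. MCM7 was called higher at 1 h (0.08 ± 0.030, adjusted p = 0.0455), a call lost by DESeq2 (0.11), with the 1 CPM filter, the replicate block and the joint dTAG fit, and without 0 h replicate 1 or either 1 h library, and its value was 0.0086 with the GC and length correction (adjusted p = 0.894). MCM2 was 239 and 233 CPM in shFOXA1 cells, against 335 and 334 CPM in shCtrl cells, and 227 and 219 CPM in R219S cells, against 223 and 220.3 CPM in WT cells, lower in the first pair and overlapping in the second. MCM7 was 435 and 419 CPM in shFOXA1 cells, against 582 and 588 CPM in shCtrl cells, and 413 and 397 CPM in R219S cells, against 478 and 453 CPM in WT cells, lower in both pairs. MCM6 was the 1 subunit called higher in R219S (0.14 ± 0.047, adjusted p = 0.00769), and that call was lost by DESeq2 (0.065).

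Per kb of exon, the scale on which levels of different genes can be set side by side, MCM7 was the highest of the 6 subunits and MCM5 the lowest in every group. At 24 h MCM7 averaged 40.2 and MCM5 3.77 CPM per kb, against 67.0 and 12.6 CPM per kb at 0 h, so their ratio was 10.7 at 24 h, against 5.33 at 0 h. In the other pairs the ratio was 5.46 in shFOXA1 cells, against 5.29 in shCtrl cells, and 5.92 in R219S cells, against 7.05 in WT cells. Exon lengths came from 1 annotation that joins all isoforms, and 8.94% of the exon bases of MCM7 also lie in AP4M1 on the opposite strand.

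**Figure D2:**
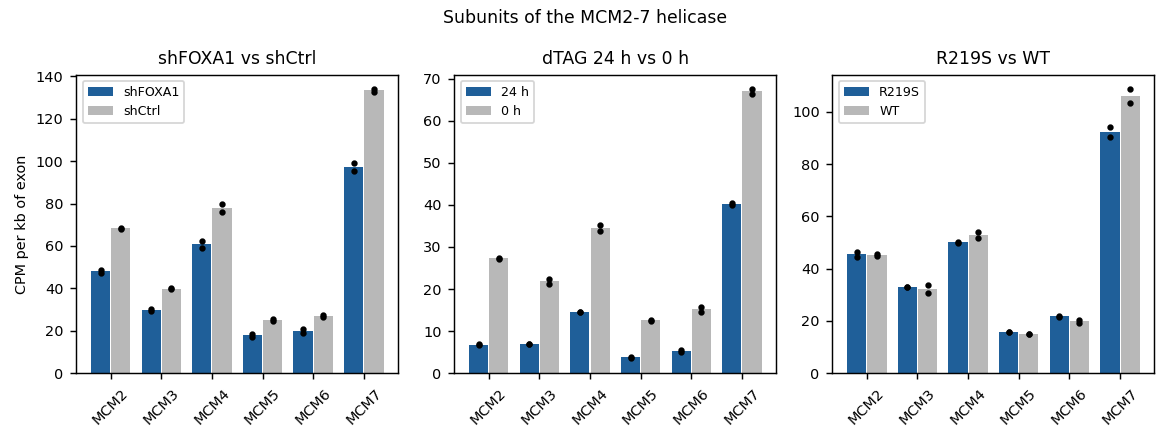
Levels of the 6 subunits of the MCM2-7 helicase in CPM per kb of exon, as means of 2 libraries (bars) with each library as a point, in shFOXA1 and shCtrl cells, at 24 h and 0 h of dTAG, and in R219S and WT cells, each panel with its own vertical scale. At 24 h all 6 bars stand below those of 0 h, and MCM7 is the highest bar of each, with 40.2 CPM per kb at 24 h and 67.0 CPM per kb at 0 h.

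Helicase activation had the lowest median of the 9 roles at 24 h, -2.10, with all 6 genes lower, and all 6 also fell in shFOXA1 cells (median -0.55). CDC45, a part of the active helicase, had 33.5 and 36.1 CPM at 0 h, 36.8 and 35.4 CPM at 1 h and 5.24 and 6.66 CPM at 24 h. MCM10, which helps the helicase to start, had 27.3 and 24 CPM at 0 h, 27.4 and 25.3 CPM at 1 h and 4.69 and 4.29 CPM at 24 h. GINS2, a GINS subunit, had 13.7 and 17.2 CPM at 0 h, 16.4 and 17.1 CPM at 1 h and 3.03 and 2.86 CPM at 24 h. The 0 h and 1 h libraries overlapped for all 3 genes and the 24 h libraries stood apart, at -2.55 ± 0.097 for CDC45, -2.51 ± 0.11 for MCM10 and -2.39 ± 0.14 for GINS2.

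In the knockdown CDC45 had 57.2 and 46.8 CPM in shFOXA1 cells, against 85.3 and 78.9 CPM in shCtrl cells, MCM10 46.7 and 40.9 CPM, against 67.7 and 68.3 CPM, and GINS2 30.9 and 30.6 CPM, against 46.3 and 47.8 CPM. All shFOXA1 values were below the shCtrl values, by 0.66, 0.63 and 0.61 on the log2 scale in that gene order. In the mutant CDC45 had 57.5 and 57.1 CPM in R219S cells, against 66.7 and 63.1 CPM in WT cells, MCM10 43.4 and 42.8 CPM, against 45.2 and 41.6 CPM, and GINS2 18 and 18.6 CPM, against 21.7 and 18.4 CPM. CDC45 was lower in R219S (-0.18 ± 0.052), and MCM10 and GINS2 overlapped between R219S and WT.

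GINS3 had the smallest fall of the 4 GINS subunits at 24 h. It was higher at 1 h (0.24 ± 0.066, adjusted p = 0.00419) and in R219S cells (0.22 ± 0.064, adjusted p = 0.00144), and at 24 h it fell by 0.31, where GINS1, GINS2 and GINS4 fell by 1.71, 2.39 and 1.80. The 1 h call was lost by DESeq2 (adjusted p = 0.077) and without 1 h replicate 1 (0.062), and without R219S replicate 1 the R219S value was 0.13 (adjusted p = 0.137). Per kb, GINS3 was the highest of the 4 subunits at 24 h, at 4.01 CPM, where GINS1 had been the highest at 0 h, at 7.68 CPM. An antisense gene covers 10.9% of the exon bases of GINS3, and the strand setting of the counting was not given.

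**Figure D3:**
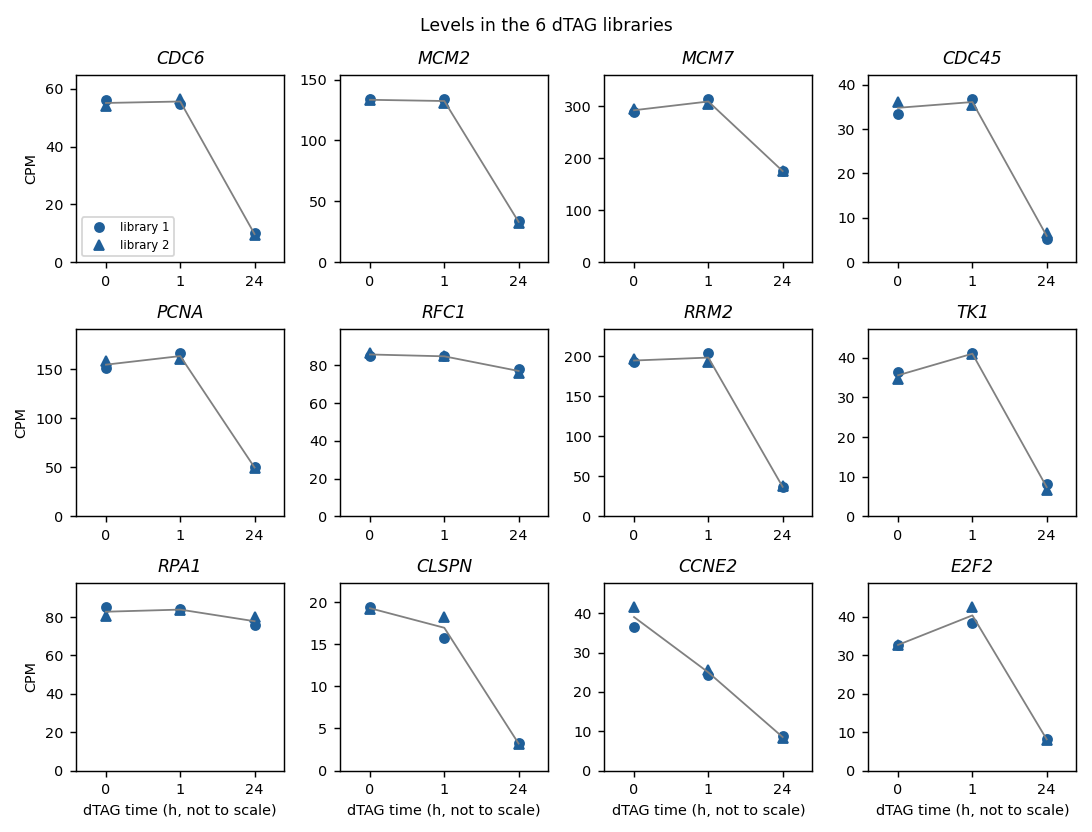
CPM of 12 members in the 6 dTAG libraries at 0 h, 1 h and 24 h (horizontal axis in order, not to scale), with circles for replicate 1, triangles for replicate 2 and a line through the means. All 12 had their lowest mean at 24 h. CCNE2 was already lower at 1 h, E2F2 was higher at 1 h, and RPA1 and RFC1 were nearly level.

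Of the clamp and its loader, all 6 genes fell at 24 h (median -1.26) and all 6 in shFOXA1 cells (median -0.38). PCNA, the clamp itself, had 151 and 158 CPM at 0 h, 166 and 160.4 CPM at 1 h and 50.5 and 49.1 CPM at 24 h, a change of -1.63 ± 0.046. It had 261 and 236 CPM in shFOXA1 cells, against 316 and 324 CPM in shCtrl cells, and 191 and 186 CPM in R219S cells, against 216 and 219 CPM in WT cells. PCNA was thus lower in both libraries of each pair, by 0.36 in the knockdown and by 0.21 in the mutant.

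RFC1, the large subunit of the loader, hardly moved in the dTAG libraries. Its levels were 85.1 and 86.5 CPM at 0 h, 84.8 and 84.9 CPM at 1 h and 78.1 and 76.1 CPM at 24 h. The 24 h libraries were the lowest, by -0.15 ± 0.045 (adjusted p = 0.0055), and this call was lost without 24 h replicate 2 (adjusted p = 0.064) and with the GC and length correction, where the value was -0.07 (0.21). It was 118 and 117 CPM in shFOXA1 cells, against 134 and 143 CPM in shCtrl cells, and 115 and 126 CPM in R219S cells, against 137 and 135 CPM in WT cells, lower in each pair, although without R219S replicate 1 the R219S value was -0.11 and not called (adjusted p = 0.077). The small subunits RFC2, RFC3, RFC4 and RFC5 fell at 24 h by 1.07, 1.45, 1.61 and 0.80.

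RFC3 was one of the 2 genes called lower at 1 h. It had 43.4 and 43.2 CPM at 0 h, 38.8 and 38.3 CPM at 1 h and 16.2 and 15.3 CPM at 24 h. Both 1 h libraries lay below both 0 h libraries, by -0.17 ± 0.055 (adjusted p = 0.0191), and the call was lost by DESeq2 (0.17). It was also lost with the GC and length correction (adjusted p = 0.13) and without 0 h replicate 1 or either 1 h library. RFC3 had 62.7 and 55.7 CPM in shFOXA1 cells, against 80.2 and 82.4 CPM in shCtrl cells, and 43 and 45.3 CPM in R219S cells, against 41.1 and 40.2 CPM in WT cells, lower in the first pair and not called in the second (adjusted p = 0.0748).

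The polymerase and primase genes had a wide spread at 24 h, from -1.40 for POLA2 to -0.40 for POLE, with all 7 lower and a median of -1.0. In shFOXA1 cells 5 of the 7 fell (median -0.36). PRIM1, the catalytic primase subunit, had 26.6 and 27.5 CPM at 0 h, 30.2 and 29.6 CPM at 1 h and 10.4 and 11.9 CPM at 24 h. POLE2, the second subunit of the leading-strand polymerase, had 11.5 and 11.5 CPM at 0 h, 10.5 and 13.8 CPM at 1 h and 3.95 and 5.35 CPM at 24 h. POLD3, an accessory subunit of the lagging-strand polymerase, had 33 and 31.4 CPM at 0 h, 33.5 and 35.2 CPM at 1 h and 18.1 and 20.7 CPM at 24 h. Each was lowest in both 24 h libraries, by 1.27 for PRIM1, 1.30 for POLE2 and 0.73 for POLD3. POLE and POLA1, the catalytic subunits of polymerases epsilon and alpha, fell by 0.40 and 0.56.

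PRIM1 had 44.9 and 37.1 CPM in shFOXA1 cells, against 57.9 and 59.4 CPM in shCtrl cells, POLE2 17.8 and 15.1 CPM, against 23.2 and 25.1 CPM, and POLD3 49.4 and 47.4 CPM, against 55.8 and 55.4 CPM. All 3 were below their controls, POLD3 without passing the test (adjusted p = 0.0519). PRIM1 had 28.6 and 28.6 CPM in R219S cells, against 33.7 and 29.9 CPM in WT cells, POLE2 22.8 and 21.8 CPM, against 21.5 and 24.4 CPM, and POLD3 45 and 46 CPM, against 48.6 and 48.1 CPM. Here PRIM1 was called lower (adjusted p = 0.0308), a call lost by DESeq2 (0.23) and, with a value of -0.07, without WT replicate 1 (0.557), and POLE2 overlapped. POLA1 had the largest rise of any member in R219S cells, with 60.1 and 59.6 CPM, against 43.2 and 41.4 CPM in WT cells, a change of 0.50 ± 0.056 (adjusted p = 4.32e-17).

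The Okazaki fragment genes FEN1, a nuclease that trims flaps, and LIG1, the ligase that seals the nicks, were lower in all comparisons except at 1 h, where neither was called. FEN1 had 76.2 and 79.6 CPM at 0 h, 82.1 and 82.1 CPM at 1 h and 33 and 33.6 CPM at 24 h, a change of -1.22 ± 0.053. It had 111 and 104 CPM in shFOXA1 cells, against 134 and 128 CPM in shCtrl cells, and 95.5 and 92.4 CPM in R219S cells, against 109 and 104 CPM in WT cells, below the controls in both. LIG1 fell by 1.27 at 24 h, by 0.22 in shFOXA1 cells and by 0.32 in R219S cells. Both knockdown calls were lost when either shCtrl library was left out.

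In nucleotide supply, all 4 genes fell at 24 h (median -1.66) and 3 of 4 in shFOXA1 cells (median -0.37). RRM2, the small subunit of ribonucleotide reductase that is made in S phase, had 193 and 196 CPM at 0 h, 204 and 193 CPM at 1 h and 36.3 and 37.6 CPM at 24 h. The change of -2.40 ± 0.046 at 24 h was far larger than that of RRM1, the large subunit, at -0.84 ± 0.041. RRM2 had 222 and 200.3 CPM in shFOXA1 cells, against 265 and 276 CPM in shCtrl cells, and 149 and 160.0 CPM in R219S cells, against 203 and 203 CPM in WT cells. Both pairs were apart, by 0.36 in the knockdown and by 0.39 in the mutant.

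TK1, cytosolic thymidine kinase, had 36.4 and 34.7 CPM at 0 h, 41.1 and 40.9 CPM at 1 h and 8.06 and 6.72 CPM at 24 h. It was above both 0 h libraries at 1 h (0.20 ± 0.057, adjusted p = 0.00498) and fell by 2.27 at 24 h. The 1 h value was 0.06 with the GC and length correction (adjusted p = 0.583), and its call was also lost by DESeq2 (0.084) and without 0 h replicate 2 or 1 h replicate 1. TK1 had 74.8 and 84.6 CPM in shFOXA1 cells, against 117 and 122 CPM in shCtrl cells, and 77.2 and 73.8 CPM in R219S cells, against 71.7 and 70.9 CPM in WT cells, lower in the knockdown and not called in the mutant (adjusted p = 0.146).

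TYMS, thymidylate synthase, had 68.5 and 72.2 CPM at 0 h, 75.8 and 78.1 CPM at 1 h and 32.6 and 35.5 CPM at 24 h. Its change was called at 1 h (0.13 ± 0.044, adjusted p = 0.0279) and at 24 h (-1.05 ± 0.056). The 1 h call was lost by DESeq2 (adjusted p = 0.18), with the GC and length correction (0.072) and in the joint dTAG fit (0.055). It was also lost without 0 h replicate 1 or either 1 h library. TYMS was 134 and 129.9 CPM in shFOXA1 cells, against 143 and 150.4 CPM in shCtrl cells, and 28.3 and 28.6 CPM in R219S cells, against 30.04 and 30.1 CPM in WT cells, called in neither. ENOSF1 on the opposite strand shares 39.1% of the exon bases of TYMS, and its log2 fold change was 0.37 in shFOXA1 cells and 0.42 in R219S cells. With no strand setting given, reads of the pair cannot be told apart there, and levels of TYMS in the R219S table, which lists 20243 features where the dTAG tables list 57905, are not comparable with those elsewhere.

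Single-strand binding had the smallest median change of the roles at 24 h, -0.72. RPA1, the large subunit of replication protein A, had 85.1 and 80.5 CPM at 0 h, 84.2 and 83.7 CPM at 1 h and 75.9 and 79.9 CPM at 24 h. The 24 h libraries were the lowest by a margin that did not pass the test (-0.09 ± 0.047, adjusted p = 0.133). RPA3, the smallest subunit, had 22.3 and 23.8 CPM at 0 h, 25 and 24.4 CPM at 1 h and 14.4 and 13.6 CPM at 24 h, a change of -0.72 ± 0.083, and RPA2, the middle subunit, changed by -0.84 ± 0.065.

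All 3 RPA genes fell in shFOXA1 cells. RPA1 had 162 and 159 CPM in shFOXA1 cells, against 194 and 195 CPM in shCtrl cells, and RPA3 41.2 and 41.6 CPM, against 52.6 and 51.8 CPM, without overlap in either gene. Both calls were lost when either shCtrl library was left out (adjusted p = 0.064 and 0.095 for RPA1, 0.061 and 0.058 for RPA3). In the mutant RPA1 had 136 and 133 CPM in R219S cells, against 147 and 135 CPM in WT cells, with overlap, and RPA3 34.2 and 35.3 CPM, against 29.8 and 30.03 CPM. RPA3 (0.22 ± 0.067) and RPA2 (0.20 ± 0.057) were called higher in R219S cells. The RPA3 call was lost by DESeq2 (adjusted p = 0.054) and the RPA2 call without WT replicate 2 (0.071) and, with a value of 0.13, without R219S replicate 2 (0.094).

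Of fork signalling and chromatin assembly, all 3 genes fell at 24 h (median -1.73), in shFOXA1 cells (median -0.42) and in R219S cells (median -0.27). In R219S cells 31.6% of all genes tested were lower (62.1% called in either direction). The CHAF1A call there was lost by DESeq2 (adjusted p = 0.076). CLSPN encodes claspin, the adaptor that passes the stalled-fork signal to CHEK1. Its levels were 19.4 and 19.2 CPM at 0 h, 15.7 and 18.2 CPM at 1 h and 3.31 and 3.10 CPM at 24 h. The change at 24 h, -2.59 ± 0.11, was the largest fall of all 45 genes. CLSPN had 28.4 and 25.6 CPM in shFOXA1 cells, against 44 and 42.9 CPM in shCtrl cells, and 16 and 15.8 CPM in R219S cells, against 20.7 and 19.9 CPM in WT cells, apart in both pairs. CHAF1A and CHAF1B, subunits of the histone chaperone CAF-1, fell at 24 h by 0.90 and 1.73.

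The S-phase entry regulators split. E2F1, an activating E2F factor, had 50.03 and 49.1 CPM at 0 h, 52.3 and 48.8 CPM at 1 h and 13 and 15.4 CPM at 24 h, and E2F2, a closely related activator, 32.8 and 32.7 CPM, 38.3 and 42.5 CPM and 8.27 and 7.99 CPM. E2F2 was the only member called higher at 1 h by both edgeR (0.30 ± 0.059, adjusted p = 3.90e-05) and DESeq2, and both genes were low in the 24 h libraries, at -1.80 ± 0.074 and -2.01 ± 0.085. E2F1 had 56.7 and 46.2 CPM in shFOXA1 cells, against 78.4 and 76.1 CPM in shCtrl cells, and E2F2 55.5 and 44.4 CPM, against 82.4 and 85 CPM, both lower. In the mutant E2F1 had 101 and 91 CPM in R219S cells, against 98.8 and 99.5 CPM in WT cells, and E2F2 75.4 and 76.1 CPM, against 78.3 and 75 CPM, with overlap for both.

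The cyclins E, which drive the kinase CDK2 into S phase, went apart from each other. CCNE2 had 36.6 and 41.5 CPM at 0 h, 24.2 and 25.7 CPM at 1 h and 8.70 and 8.33 CPM at 24 h, falling by 0.65 at 1 h (adjusted p = 1.42e-13) and by 2.20 at 24 h. CCNE2 had 33.3 and 30.8 CPM in shFOXA1 cells, against 43.5 and 44.5 CPM in shCtrl cells, and 10.2 and 10.5 CPM in R219S cells, against 17.7 and 16.1 CPM in WT cells. It was the only gene of the 45 called lower in all 4 comparisons, and its R219S change, -0.71 ± 0.095, was the largest fall there. INTS8 on the opposite strand shares 37.0% of the exon bases of CCNE2, and its own log2 fold changes were -0.10 in shFOXA1 cells, 0.05 at 1 h, -0.04 at 24 h and -0.19 in R219S cells.

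CCNE1 had 11.4 and 12.7 CPM at 0 h, 12.9 and 10.5 CPM at 1 h and 6.46 and 5.29 CPM at 24 h, a change of -1.03 ± 0.12 at 24 h. It was the 1 member with a positive value in the knockdown, 14.2 and 14.9 CPM in shFOXA1 cells, against 12.4 and 13.3 CPM in shCtrl cells, which did not pass the test (0.18 ± 0.11, adjusted p = 0.27). In R219S cells it was higher, with 21.1 and 20.2 CPM, against 17 and 14.9 CPM in WT cells, a change of 0.36 ± 0.083 (adjusted p = 5.07e-05).

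**Figure D4:**
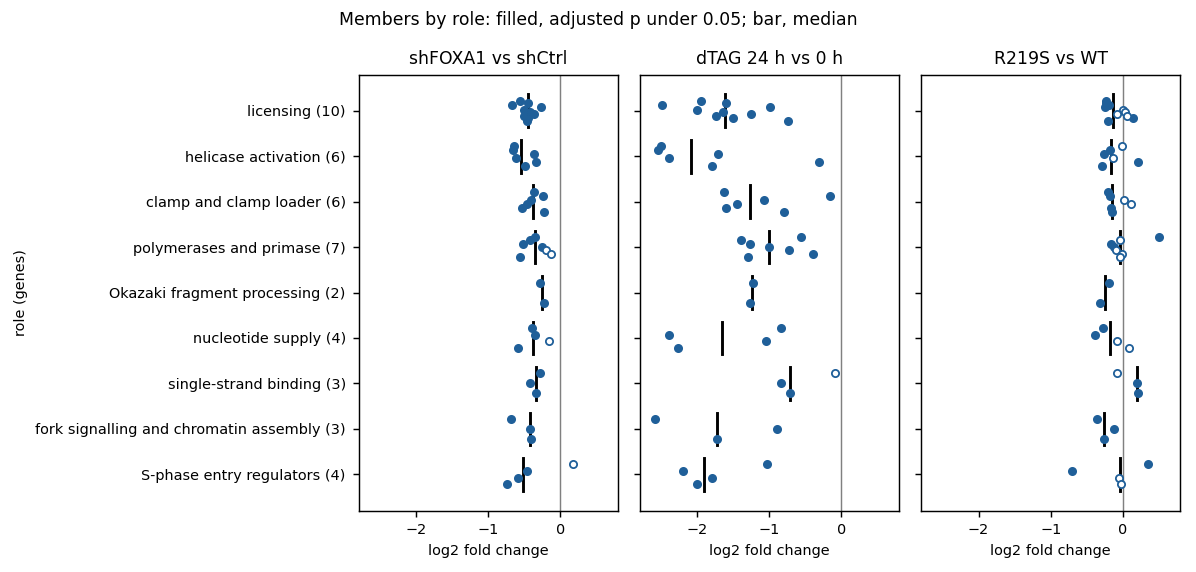
Log2 fold change of each member (points, filled at an adjusted p under 0.05) by role, with the median of the role as a bar, for shFOXA1 against shCtrl, 24 h against 0 h and R219S against WT. At 24 h the medians run from -2.10 for helicase activation to -0.72 for single-strand binding, and in shFOXA1 cells from -0.55 to -0.25.

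Whether 24 h differed from 1 h was tested in 1 fit of the 6 dTAG libraries. All 45 genes were lower at 24 h than at 1 h and 0 higher, where 24.5% of all 20027 genes were lower and 21.2% higher (45.7% in either direction), with a median of -1.39. RPA1 was the weakest (-0.11 ± 0.044, adjusted p = 0.0398), and its call was lost with RLE scaling, with library totals alone (adjusted p = 0.22), with a filter of 1 CPM and without 1 h replicate 1, 1 h replicate 2 or 24 h replicate 1 (adjusted p up to 0.272). No gene was higher at an unadjusted p under 0.05. The 1 h and 24 h comparisons share the 0 h libraries, so their values are given side by side without a comparison of the lists.

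The change at 24 h was larger than that in the knockdown when the difference itself was tested. Of the 45 genes, 41 had a lower log2 fold change at 24 h than in shFOXA1 cells and 0 a higher one, where 13.2% of all 20795 genes had a lower one and 9.45% a higher one. The median difference was -1.04. It was largest for RRM2 (-2.03 ± 0.080), CLSPN (-1.89 ± 0.14), CDC45 (-1.88 ± 0.16), MCM10 (-1.87 ± 0.13) and CDC6 (-1.81 ± 0.10). The 4 without a call were POLA1, GINS3, RFC1 and RPA1, and RPA1 had the most positive difference (0.20 ± 0.073, adjusted p = 0.0535; 1 gene was higher at an unadjusted p under 0.05). The fusion line and the hairpin cells differ in construct as well as in the way FOXA1 was lowered, and these cannot be told apart. The knockdown was partial, with FOXA1 mRNA averaging 302 CPM in shFOXA1 cells, against 418 CPM in shCtrl cells. No vehicle group is named at 24 h, so time since 0 h cannot be told apart from degradation either.

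R219S did not follow 24 h of degradation. For 43 of the 45 genes the log2 fold change in R219S cells was higher than that at 24 h and for 0 lower, where 30% of all 13472 genes were higher and 26% lower (56% in either direction), and no gene was lower at an unadjusted p under 0.05. The median difference was 1.36, and the largest were those of MCM10 (2.49 ± 0.12), CDC45 (2.36 ± 0.10), TK1 (2.34 ± 0.096), CDC6 (2.30 ± 0.088) and GINS2 (2.24 ± 0.16). RFC1 and RPA1, which changed least at 24 h, were the exceptions, and RFC1 was called lower in R219S cells. Of the 44 genes lower at 24 h, 22 were lower in R219S cells, 16 not called and 6 higher. As nearly all members were lower at 24 h, this split nearly repeats the R219S calls of all 45. Among all genes tested, 31.6% were lower and 30.5% higher in R219S cells. FOXA1 mRNA level and the set of features counted also differ between these comparisons, and these cannot be told apart from the mutation. Without a named vehicle group at 24 h, time since 0 h cannot be told apart from degradation there.

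Against the knockdown, R219S had the higher log2 fold change for 26 genes and the lower for 0, where 19.5% of all 13480 genes were higher and 22.1% lower, with a median difference of 0.31 and 1 gene lower at an unadjusted p under 0.05. POLA1 (0.83 ± 0.090), E2F2 (0.70 ± 0.11), TK1 (0.65 ± 0.086), MCM10 (0.60 ± 0.099) and RPA2 (0.60 ± 0.11) differed most. The 22 genes lower in R219S cells were among the 41 of 45 that were lower in shFOXA1 cells, so nearly any choice of members would share that call. Construct and the set of features counted differ here as well, and these cannot be told apart from the way FOXA1 was changed.

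**Figure D5:**
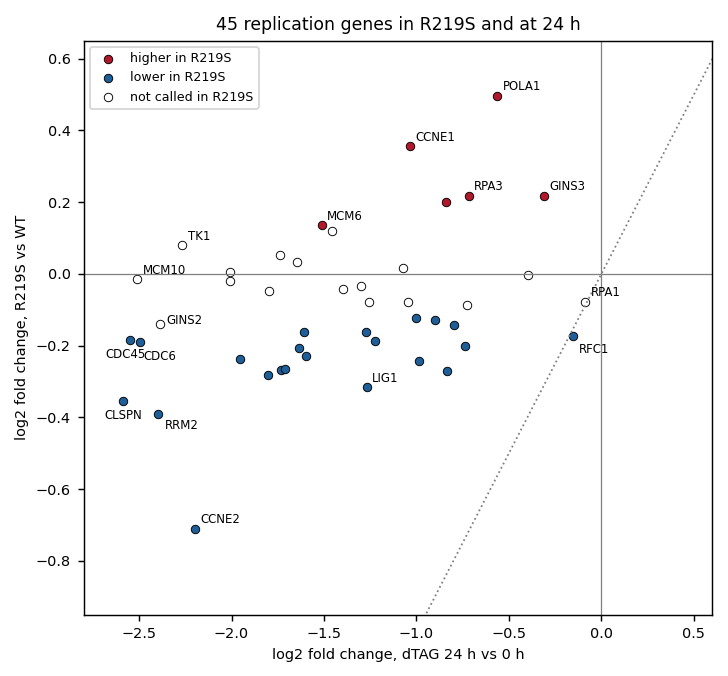
Log2 fold change in R219S against WT (vertical) and at 24 h against 0 h (horizontal) for the 45 genes, each a point, red or blue where called higher or lower in R219S cells and white where not called; the dotted line marks equal changes. Horizontal values spread from -2.59 to -0.09 while vertical values stay between -0.71 and 0.50.

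Other replication genes outside the 45 were mostly lower at 24 h. Of 40 such genes 35 were lower and 2 higher at 24 h (median -0.64), 25 and 0 in shFOXA1 cells (median -0.31), 17 and 8 in R219S cells (median -0.07), and 0 and 5 at 1 h. Among all genes tested, 24.8% were lower and 22.1% higher at 24 h, and 12.3% and 11.3% in shFOXA1 cells. The share called in either direction in R219S cells and the share higher at 1 h were near those of all genes tested (62.1% and 10.7%). DTL, which targets CDT1 for destruction, fell by 2.29, WDHD1 by 1.78 and RNASEH2A, a subunit of ribonuclease H2, by 1.61 at 24 h, while POLD4, the smallest subunit of polymerase delta, rose by 0.46 and CHTF8 by 0.17. In shFOXA1 cells TIPIN (-0.54) and DNA2 (-0.53) were among those that fell most. At 1 h RECQL4 (0.28), DUT (0.25) and ASF1B (0.17) rose most. In R219S cells ATAD5 (-0.62), WDHD1 (-0.58) and POLD4 (-0.50) fell most, and MCM9 (0.58), ORC2 (0.36) and TIPIN (0.34) rose most.

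G1/S regulators were mixed. Of 28 tested, 19 were lower and 3 higher at 24 h (median -0.35), 11 and 7 in shFOXA1 cells (median -0.12), 14 and 6 in R219S cells (median -0.10), and 2 and 8 at 1 h (median 0.04). Among all genes tested, 24.8% were lower and 22.1% higher at 24 h, and 12.3% and 11.3% in shFOXA1 cells. These shares were 31.6% and 30.5% in R219S cells, and 9.12% and 10.7% at 1 h. The transcription factors MYBL2 (-2.24), E2F8 (-2.05) and E2F7 (-1.99) fell most at 24 h. The pocket protein gene RBL2 (0.37) and the E2F partner TFDP2 (0.49) rose. In shFOXA1 cells the kinase inhibitor CDKN1A (0.73) and MYC (0.59) rose, and the retinoblastoma gene RB1 (-0.75), E2F8 (-0.62) and MYBL2 (-0.52) fell most. MYC fell by 0.60 at 1 h, where CDKN2D (0.40) and the phosphatase CDC25A (0.40) rose. In R219S cells CDK6 (1.30) and MYC (0.64) rose, and E2F7 (-0.70), FBXO5 (-0.54) and MYBL2 (-0.51) fell.

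Mitosis genes, which act after S phase, were also mostly lower except at 1 h. All 26 were lower in shFOXA1 cells (median -0.44), 25 at 24 h (median -0.81), 23 in R219S cells (median -0.32) and 3 at 1 h, where 3 were higher. Of all genes tested, 12.3% were lower in shFOXA1 cells, 24.8% at 24 h and 31.6% in R219S cells. For 1 h these shares were 9.12% lower and 10.7% higher, so the mitosis counts at 1 h lay near the background. At 24 h CDK1 (-1.45), AURKB (-1.17) and BUB1B (-1.11) fell most. In shFOXA1 cells CENPA (-0.88), FOXM1 (-0.78) and CENPE (-0.67) did, and in R219S cells CDC25C (-1.06), BUB1B (-0.56) and AURKB (-0.54). At 1 h CENPE (-0.25), CENPF (-0.18) and MKI67 (-0.16) were lower, and CENPA (0.36), NUSAP1 (0.15) and UBE2C (0.15) higher. At 24 h the mitosis median lay above the median of the 45 replication genes, and in R219S cells below it.

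The mitochondrially encoded mRNAs, read as a sign of library make-up, moved too: 13 of 13 were lower at 24 h (median -0.38) and at 1 h (median -0.23), 8 were higher in shFOXA1 cells (median 0.22) and 11 in R219S cells (median 0.17). Of all genes tested, 24.8% were lower at 24 h and 9.12% at 1 h, and 11.3% were higher in shFOXA1 cells and 30.5% in R219S cells. The part of the mitochondrial mRNAs in the results was not tested.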

How the data were processed

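RNA sequencing was deposited as 4 tables of raw counts per gene. Per the submitters' processing notes the authors used STAR, featureCounts, DESeq2 and the build hg19; versions, annotation and strand setting are not given in the sources used here. Symbols for Ensembl identifiers and exon lengths came from GENCODE 29, and promoters from RefSeq on GRCh38.p14, so no coordinates of the count tables are given. The 0 h libraries stand in both degradation tables with identical counts, and levels in different tables were not tested against each other.

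The libraries of the 2 groups compared entered 1 fit over all genes (edgeR 4.0.16 on R 4.3.3), with low counts removed by filterByExpr, TMM scaling, a robust glmQLFit and the quasi-likelihood F test, and a Benjamini-Hochberg adjusted p under 0.05 as a call. All adjusted p-values are from edgeR unless DESeq2 (1.42.0) is named. A standard error is the size of the log2 fold change divided by the root of its F statistic. Differences between changes were tested as interaction terms over 8 libraries, and 24 h against 1 h in a fit of 6. Levels are CPM after TMM, and depth was 21560090 to 38465155 counts. Over all genes, libraries of a group differed by more than counting error alone, with a chi-square per degree of freedom of 2.04 to 11.8. The part of counting error in the spread of each member was not measured.

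Groups came from the labels. The members, the lists and the tests were chosen with earlier results of these data known. Named genes were 25 members fixed with the design, the 5 largest called changes in each direction per comparison, every called member against the majority, any untested member, FOXA1, and from each other list the 3 largest called changes in each direction. Alternatives were RLE scaling, library totals, other low-count filters, DESeq2, a GC and length correction, a replicate block, a joint dTAG fit and leaving out each library. Exons of 22 members overlap those of another gene in GENCODE 29, at least 20% of the bases for CCNE2, GINS4, MCM2, POLA2, RRM2 and TYMS, and 7 members (PCNA, RFC3, RFC5, FEN1, RRM2, TYMS and RPA2) have pseudogenes of their name, so their counts are less certain. Among the R219S features 26 gene names stood as dates and were left unmatched. Per-sample columns left unused numbered 0. Results for some named genes are not reported here.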

Additional observations from a re-analysis of the deposited data

Results flagged for a closer look

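The differences between comparisons that passed their own test are listed here, since the same genes moved by different amounts in them. The comparisons also differ in construct, in the set of features counted or in the level of FOXA1 mRNA. These cannot be told apart from the way FOXA1 was changed. Nor can the time since 0 h in the 24 h group, as no vehicle group is named there. The change at 24 h was lower than that in the knockdown for 41 members, where 13.2% of all 20795 genes tested had a lower one. The change in R219S cells was higher than that at 24 h for 43, where 30% of all 13472 genes were higher (56% in either direction). The R219S change was higher than that in the knockdown for 26, where 19.5% of all 13480 genes were higher. These differences share libraries, so they are not separate results.

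6 members were called in opposite directions, higher in R219S cells and lower at 24 h, with a called difference. They were all the members called higher in R219S cells, where 30.5% of all genes tested were higher. The R219S calls of MCM6, GINS3, RPA2 and RPA3 were each lost under some alternative run. The log2 fold change in R219S cells exceeded that at 24 h by 1.64 for MCM6, a helicase subunit, by 0.52 for GINS3, a subunit of the GINS complex, and by 1.05 for POLA1, the catalytic subunit of polymerase alpha. It exceeded it by 1.04 for RPA2 and by 0.93 for RPA3, which bind single-stranded DNA, and by 1.39 for CCNE1, a cyclin of S-phase entry. With 2 libraries per group, no group was large enough to be searched for single outlying samples.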

How the results depend on the processing

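The counts of members called in shFOXA1 cells, at 24 h, in R219S cells, at 24 h against 1 h and for R219S against 24 h stayed within 1.5 times their value under every alternative run. At 1 h, 6 members were higher and 2 lower. By DESeq2 these counts were 1 and 1, the joint dTAG fit called 3 higher, the GC and length correction called 1 lower, and leaving out 1 library gave 1 to 7 higher and 1 to 2 lower. CDT1, MCM7, GINS3, RFC3, TYMS and TK1 lost their call at 1 h under at least 1 alternative, and CDT1 changed sign with that correction (-0.0195, adjusted p = 0.885). For 24 h against the knockdown, 0 members were higher, and 1 (RPA1) was with RLE scaling, with library totals and with a filter of 1 CPM, and 0 to 1 when 1 library was left out. For R219S against the knockdown, 0 were lower, and 0 to 1 when 1 library was left out, the 1 being CCNE2 without shFOXA1 replicate 2. At 24 h the 1 call lost was that of RFC1. In shFOXA1 cells RFC1, RFC5, POLD1, FEN1, LIG1, RPA1 and RPA3 lost their call when either shCtrl library was left out, CDT1 and GINS3 without shCtrl replicate 2, and POLA1 without shCtrl replicate 1. In R219S cells calls of ORC1, CDC45, MCM6, GINS3, RFC1, RFC4, RFC5, PRIM1, POLD1, RPA2, RPA3 and CHAF1A were lost under at least 1 alternative. Where calls were lost the cause was not tested. All genes called in shFOXA1 cells numbered 4506, against 2421 and 1713 with shCtrl replicate 1 or 2 left out and 6793 with shFOXA1 replicate 1 left out. At 1 h they numbered 3850, against 2428 and 2232 with 1 h replicate 1 or 2 left out and 1854 by DESeq2. Library totals moved the higher share of the calls for 24 h against the knockdown to 52.6%, against 41.7%. Replicate numbers are not said to pair libraries. A fit with the replicate block called 41 members lower in shFOXA1 cells, 5 higher and 2 lower at 1 h, 44 lower at 24 h, and 6 higher and 21 lower in R219S cells, losing MCM7 at 1 h (adjusted p = 0.063) and PRIM1 in R219S cells (0.054) and changing no other member's call. Members of about 3 CPM at 24 h, such as CLSPN, GINS2 and ORC1, rest on the fewest counts.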
